A study of Mus musculus with 8 samples.

Results

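Plasma proteins are made by the endoderm of the mouse yolk sac before the fetal liver takes over this work, and 42 genes of such proteins were followed here in yolk sac tissue of embryonic day 9.5 (E9.5). The genes are a list of liver-type secreted proteins, chosen by name and with earlier results of these data known. Of the 42 genes, 39 were measured by a probe set that names the gene alone, out of 18194 genes measured in all. The test was run on 36 of them, out of 10913 genes tested. C3, Gc and Serpina1a had no such probe set, and Ahsg, Cp and Fetub lay below the filter on low signals.

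Total RNA of whole yolk sac was hybridised to 8 Affymetrix mouse arrays, in 4 groups of 2. EC-N1ICD yolk sacs carried Tie2-Cre (Tie2 Tg/0) and a ROSA26 allele (ROSA +/N1ICD) that makes the Notch1 intracellular domain once Cre has removed a stop cassette, on strain C57BL6. Their wild type had neither allele (Tie2 0/0; ROSA +/+). EC-Rbpj-KO yolk sacs, of mixed strain, were Tie2-Cre; Rbpj flox/flox, so that Cre removes RBPJ, the DNA-binding partner of the Notch intracellular domain. For the wild type arrays of that set the labels give no genotype, so whether those embryos carried Cre or a floxed allele is not known here. The Tie2 promoter drives Cre in endothelial cells and in blood cells that descend from them, and the endoderm that makes plasma proteins was not its target. The sources used here do not state that each array is a separate embryo, although the sex markers below differ between the EC-Rbpj-KO arrays, so the p-values measure the spread between arrays, which may be technical.

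The yolk sac at this stage has an outer layer of visceral endoderm and an inner layer of mesoderm with vessels and blood. The endoderm takes up nutrients and lipids, and it secretes alpha-fetoprotein, transthyretin, apolipoproteins and clotting proteins under liver-type transcription factors such as HNF4A, HNF1 and FOXA. The study asked how genes respond when Notch signaling is raised or RBPJ is removed in the endothelium, with particular interest in secreted factors. The comparisons below ask which plasma protein genes were present in the yolk sac at E9.5, and which of them differed from wild type in each model.

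The labelled tissue and genotypes were checked first. All 18 measured markers of visceral endoderm were above the array median on all 8 arrays, among them Rhox5 (14755 to 18216), Cubn and Hnf4a, and their summed signal ran from 132916 to 162624. Of 10 measured hepatocyte enzymes, Tdo2 (signals of 158 to 1250) and Otc (193 to 1015) passed the filter. Tat and Cps1 had signals of 25 to 50, near the array medians of 38 to 51. Rbpj read 470 and 497 in EC-Rbpj-KO, with 984 and 919 in wild type, a log2 change of -0.98 (limma, adjusted p = 0.00866). The Notch1 signal was 1.27 times that of wild type in EC-N1ICD (limma, adjusted p = 0.554), and whether its probe set reads the transgene was not tested. The signals of Xist and Eif2s3y marked both EC-N1ICD arrays and EC-Rbpj-KO replicate 1 as female and the other 5 arrays as male, so sex and genotype coincide in the EC-N1ICD set. The ratio of 3' to 5' signal of Actb, a sign of RNA quality, was lower in EC-N1ICD (1.72 and 1.75) than in its wild type (2.10 and 2.34) and higher in EC-Rbpj-KO (2.29 and 2.09) than in its own (1.90 and 1.84), and its part in the results was not tested. The same ratio of Gapdh was 2.43 and 2.48 in EC-N1ICD, below the 3.12 and 2.76 of its wild type, and in the other set EC-Rbpj-KO replicate 1 stood apart at 4.64, with 3.45 in replicate 2 and 3.17 and 3.51 in wild type.

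Wild type yolk sac gave signals for most of the list. Of the 39 measured genes, 33 were above the median of all probe sets on each of the 4 wild type arrays, and 7 were in the top 2% on each of them. These 7 were Afp, Ttr, the fibrinogen chains Fgb and Fgg, the complement protease Cfi, the ribonuclease Rnase4 and the trypsin inhibitor Spink1. A further 6 were in the top 10%, namely Fga, prothrombin (F2), plasminogen (Plg), the plasmin inhibitor Serpinf2, Ambp and Cpn1, and 20 were above the median but lower. Alb, Hpx, Apoh, Ahsg, Cp and Fetub were at or below the median on at least 1 wild type array. The order is one of probe set signals and not of mRNA amounts, because probe sets differ in how they bind.

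**Figure D1:**
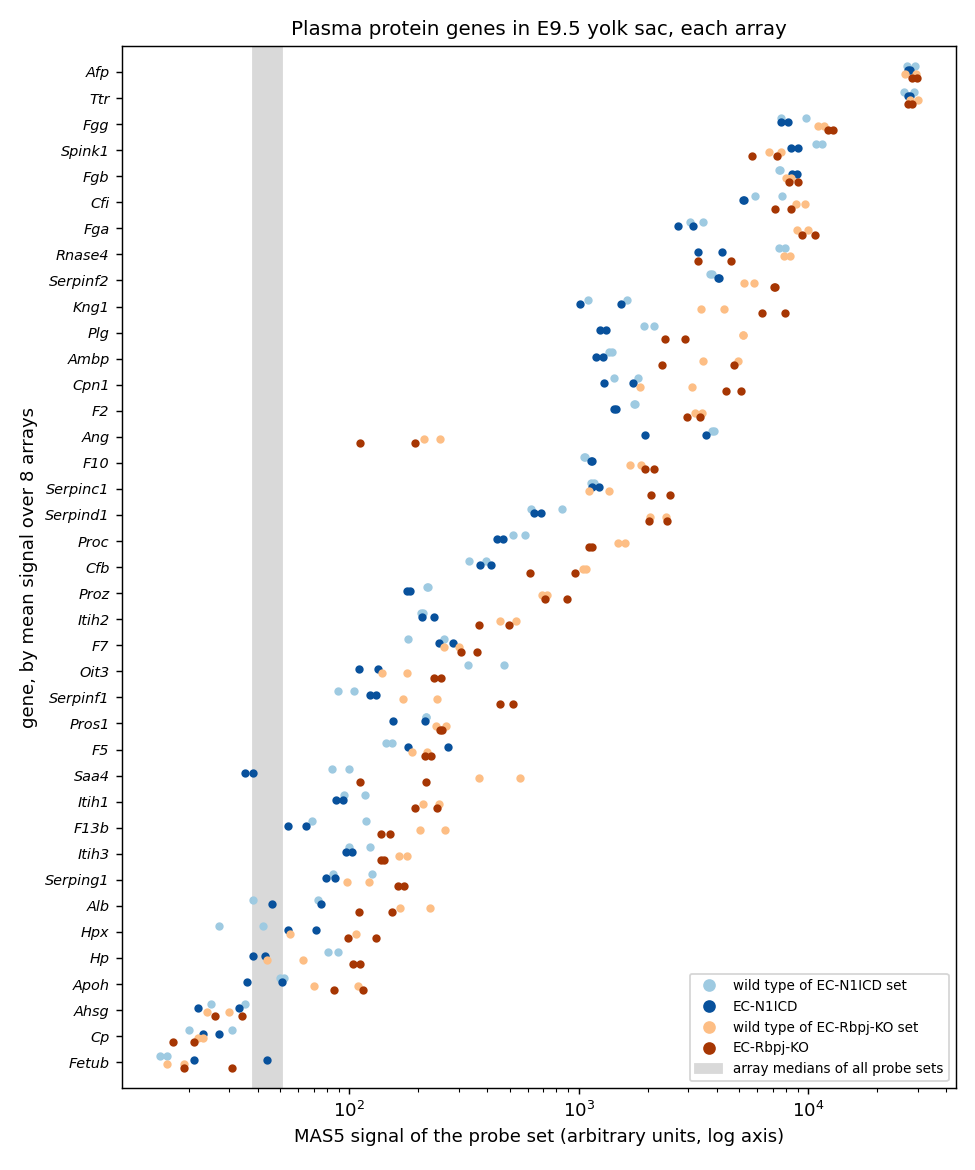
Signal of each measured plasma protein gene on each of the 8 arrays (arbitrary units, log axis), ordered by the mean over arrays, with 1 point per array and the range of array medians (38 to 51) in grey. Afp and Ttr lie near the top of the scale on every array, Alb lies within or above the grey band, and Ahsg, Cp and Fetub lie below or within it.

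Among the transport proteins Afp and Ttr headed this order, and Alb was near the array medians in the EC-N1ICD set and above them in the other. Alpha-fetoprotein (Afp), the main serum protein of the fetus, had wild type signals of 26979, 29306, 26543 and 29411, and it was the brightest probe set of all on 2 of the 8 arrays. Transthyretin (Ttr), the carrier of thyroid hormone and of retinol-binding protein, had wild type signals of 26233, 28928, 27807 and 29993. Albumin (Alb), the main serum protein after birth, had 38 and 73 in the wild type of the EC-N1ICD set and 225 and 167 in that of the EC-Rbpj-KO set. Alb and Afp are adjacent on chromosome 5, with their signals far apart in this order.

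The 3 fibrinogen genes, adjacent on chromosome 3, were all bright. The gamma chain gene Fgg had wild type signals of 7621, 9761, 11041 and 11769, and the beta chain gene Fgb had 7569, 7463, 8460 and 8022. The alpha chain gene Fga had 3470, 3064, 9940 and 8943. Between the wild types of the EC-Rbpj-KO and EC-N1ICD sets the ratio was thus 2.89 for Fga, beside 1.32 for Fgg and 1.10 for Fgb. F13b, the carrier subunit of the clot-crosslinking factor XIII, had 69, 118, 262 and 204.

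The sequences before the annotated starts of these neighbours are shown because the genes share a chromosomal site and differ in signal, and that of Cpn1 because it holds 3 of the motifs searched. Each is the last 125 bases upstream of a RefSeq start (GRCm38.p6), 5′ to 3′ on the gene's strand, with matches of the motifs named below in capitals (a match on the opposite strand reads ATTAAC or TTCCCA). They are Afp at chr5:90490589-90490713 (+), Alb at chr5:90460745-90460869 (+), Fga at chr3:83026028-83026152 (+), Fgb at chr3:83049864-83049988 (-), Fgg at chr3:83007599-83007723 (+) and Cpn1 at chr19:43986521-43986645 (-).
Afp: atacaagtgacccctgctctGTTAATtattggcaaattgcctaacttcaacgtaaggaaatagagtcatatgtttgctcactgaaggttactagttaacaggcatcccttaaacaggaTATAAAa
Alb: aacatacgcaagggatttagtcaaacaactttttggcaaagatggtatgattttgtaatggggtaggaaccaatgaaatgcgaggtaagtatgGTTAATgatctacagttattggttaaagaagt
Fga: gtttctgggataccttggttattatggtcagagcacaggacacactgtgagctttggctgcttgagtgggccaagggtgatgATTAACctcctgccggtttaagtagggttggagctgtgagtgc
Fgb: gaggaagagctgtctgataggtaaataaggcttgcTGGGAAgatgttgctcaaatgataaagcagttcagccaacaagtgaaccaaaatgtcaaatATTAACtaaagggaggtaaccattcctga
Fgg: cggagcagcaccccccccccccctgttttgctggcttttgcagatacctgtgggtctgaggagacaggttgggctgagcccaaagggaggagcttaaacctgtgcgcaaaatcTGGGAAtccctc
Cpn1: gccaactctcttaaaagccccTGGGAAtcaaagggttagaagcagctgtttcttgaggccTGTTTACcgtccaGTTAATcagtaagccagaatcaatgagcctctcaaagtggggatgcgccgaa

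The motif GTTAAT, bound by the liver-type factor HNF1, was found on either strand in 11 of 34 windows of 250 bases upstream of the starts of 32 of the genes (32.4%), against 6.44% of 32817 windows of all genes. It stands 105 bases before the start of Afp, 32 before that of Alb, 43 before Fga, 29 before Fgb and 52 before Cpn1, and the other genes with it were Cp, F13b, Gc, Itih1, Proz and Serpina1a. Genes with this match thus include bright ones such as Afp and Fgb and much dimmer ones such as Alb and Cp. The core bound by RBPJ, TGGGAA, was in 10 windows (29.4%) against 21.6% of all, among them those of Fgb, Fgg and Cpn1 above. The study searched for the longer RBPJ site GTGGGAA. In the sequences shown for Fgb, Fgg and Cpn1 the base before the core is C, so these matches lack that longer site. TGTTTAC, bound by FOXA factors, was in 3 windows (8.82%) against 3.16%, AGATAA, bound by GATA factors, in 3 (8.82%) against 9.99%, and the TATA box TATAAA in 3 (8.82%) against 12.4%. None of these 5 motifs contains another, and a match is a description of the letters and not a binding site. Windows of the other 10 genes were not used here.

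The transport proteins did not pass the test in either model. Afp read 27271 and 27701 on the EC-N1ICD arrays, within the range of their wild type, and the EC-Rbpj-KO arrays read 28320 and 29705, which overlapped theirs. The fold was 0.978 in EC-N1ICD (95% interval 0.881 to 1.08, limma, adjusted p = 0.912) and 1.04 in EC-Rbpj-KO (0.936 to 1.15, adjusted p = 0.715). Ttr read 27892 and 27257 on the EC-N1ICD arrays (fold 95% interval 0.904 to 1.11) while EC-Rbpj-KO read 27187 and 28441 (0.870 to 1.07). Each of these probe sets was the brightest on at least 1 array, and whether signals so high still follow the amount of RNA was not tested. Alb read 46 and 75 on the EC-N1ICD arrays, which overlapped their wild type. On the EC-Rbpj-KO arrays it read 110 and 153, below both wild type arrays, with a fold of 0.669 and a 95% interval from 0.384 to 1.17.

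The fibrinogen chains likewise missed the threshold in both models. Fgg read 8205 and 7644 on the EC-N1ICD arrays (fold 95% interval 0.774 to 1.09) while EC-Rbpj-KO read 12871 and 12200 (0.926 to 1.30). Fgb had 8931 and 8517 in EC-N1ICD, above both wild type arrays, with a fold of 1.16 (1.01 to 1.33, limma, adjusted p = 0.362), and 9028 and 8262 in EC-Rbpj-KO (0.915 to 1.20). Fga had 2696 and 3144 in EC-N1ICD (0.742 to 1.07) and 9437 and 10726 in EC-Rbpj-KO (0.886 to 1.28).

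F13b, in contrast to the chains, had both mutant arrays below both wild type arrays in each model. Its signals were 54 and 65 against 69 and 118 in EC-N1ICD and 151 and 138 against 262 and 204 in EC-Rbpj-KO. The folds of 0.657 and 0.624 did not pass the test (limma, adjusted p = 0.441 and 0.214).

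In EC-N1ICD, 2 of the 36 tested genes passed the test, which is 5.56% against 0.596% of all genes tested (65 of 10913). Both fell, the ribonuclease gene Rnase4 and Oit3, against 0.22% of all genes that fell and 0.376% that rose. The study lists both as lower in EC-N1ICD from these samples, so this share is not independent evidence. The median log2 fold change over the 36 genes was -0.15, against 0.01 over all genes. Mutant and wild type arrays did not overlap for 21 of the 36 genes, 15 lower and 6 higher, against 42.6% of all genes without overlap (18.9% lower and 23.7% higher). The 2 calls became 0 without replicate 1 of either EC-N1ICD or its wild type, 1 without wild type replicate 2, and 4 without either EC-Rbpj-KO array. In both mutant groups the name of replicate 1 begins with another number than the names of replicate 2 and of the wild type arrays, and no source used here says what that number marks. Neither call held with sex as a term in the fit, where the median over the 36 genes was 0.03. In that fit the effect of sex rests on EC-Rbpj-KO replicate 1 alone, and within the EC-N1ICD set sex and genotype cannot be told apart.

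In EC-Rbpj-KO, 7 of the 36 genes passed, which is 19.4% against 4.96% of all genes tested (541 of 10913). The antithrombin gene Serpinc1, Serpinf1, the kininogen gene Kng1 and the carboxypeptidase N gene Cpn1 rose, and Rnase4, Plg and the serum amyloid gene Saa4 fell, against 2.0% of all genes that rose and 2.96% that fell. The study lists Rnase4 as lower in EC-Rbpj-KO too from these samples, so this share is not fully independent evidence. The count of 7 became 4 without EC-Rbpj-KO replicate 1 and without either wild type array of that set. The median log2 fold change over the 36 genes was 0.03, against -0.02 over all genes. Without overlap between the groups were 21 genes, 11 higher and 10 lower, against 50.8% of all genes (23.3% higher and 27.5% lower). By role, 2 of the 5 tested serpins rose and none fell, both genes of the kinin group rose, and none of the transport proteins, inter-alpha-inhibitor chains or complement proteases was called. Whole tissue was measured, so fewer cells of a type cannot be told apart from less RNA per cell.

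**Figure D2:**
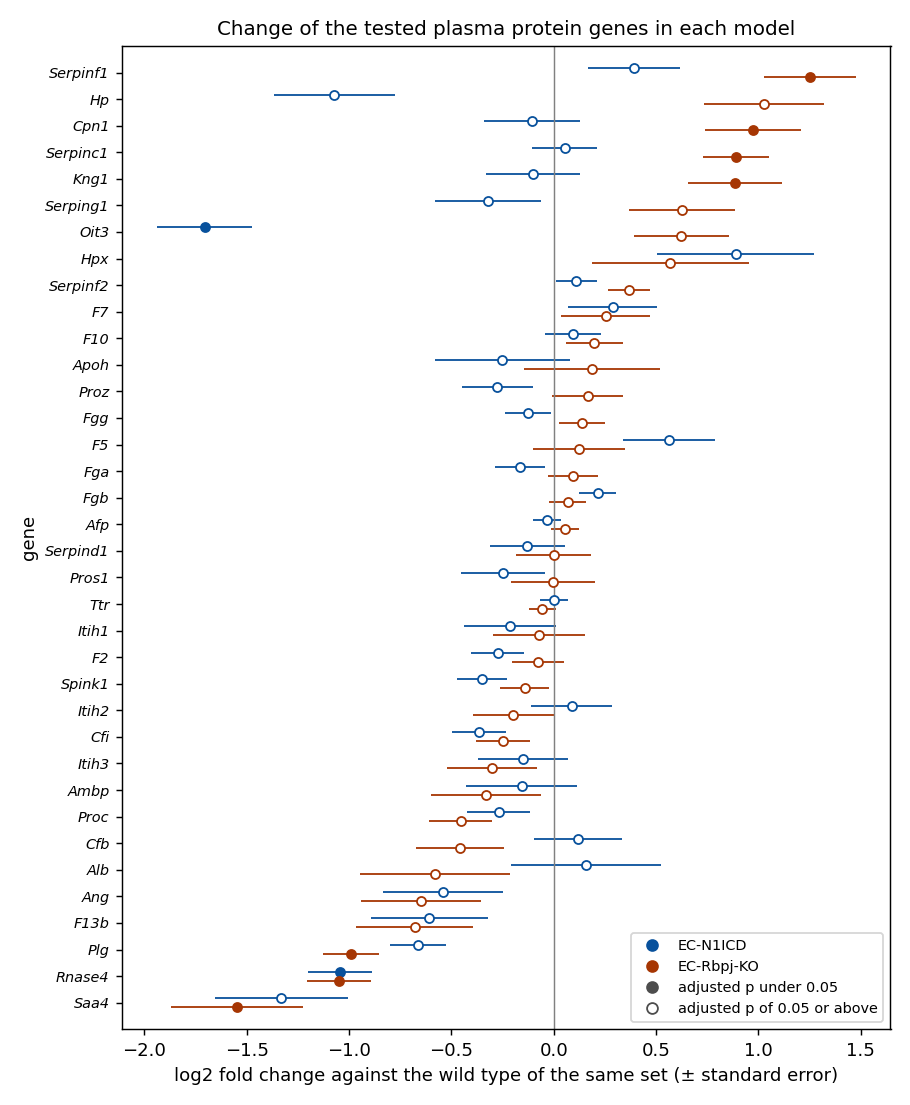
Log2 fold change of each of the 36 tested genes in EC-N1ICD and EC-Rbpj-KO against the wild type of its own set, with bars of 1 standard error from limma. Filled points passed an adjusted p of 0.05, which holds for 2 genes in the first model and 7 in the second, and Rnase4 is filled in both.

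Rnase4, a secreted ribonuclease made in liver, was lower in both models. It read 3299 and 4218 in EC-N1ICD, with 7467 and 7917 in wild type. In the other set it read 3327 and 4594 in EC-Rbpj-KO and 7837 and 8351 in wild type. In each set both mutant arrays were far below both wild type arrays, and the wild types of the sets were close to each other, with a ratio of 1.05. The log2 change was -1.04 for EC-N1ICD (SE 0.16, limma, adjusted p = 0.0156) and -1.05 for EC-Rbpj-KO (SE 0.16, adjusted p = 0.00373). The difference between the models was -0.01 (SE 0.22, adjusted p = 0.994), with a 95% interval of the ratio of folds from 0.711 to 1.40. Rnase4 is in a gene class of the study that was drawn up from these samples, so its direction here is not independent evidence. The EC-N1ICD call ended without EC-N1ICD replicate 1 (adjusted p = 0.183), without either wild type array of that set (0.108 and 0.12) and with sex in the fit (a log2 change of -0.58, adjusted p = 0.298).

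Angiogenin (Ang), a ribonuclease with a role in vessel growth, is the neighbour of Rnase4 on chromosome 14, and RefSeq gives the 2 genes a start in common. The windows upstream of both starts of Rnase4 are shown because of this start in common and because Rnase4 fell in both models. The first window, chr14:51090827-51091076 (+, GRCm38.p6), serves Ang and Rnase4 and holds none of the 5 motifs. The second, chr14:51095750-51095999 (+), serves Rnase4 and holds the RBPJ core on the opposite strand 165 bases before the start, in capitals. On that strand the base before the core is A, so this match also lacks the study's longer site GTGGGAA.
Ang and Rnase4: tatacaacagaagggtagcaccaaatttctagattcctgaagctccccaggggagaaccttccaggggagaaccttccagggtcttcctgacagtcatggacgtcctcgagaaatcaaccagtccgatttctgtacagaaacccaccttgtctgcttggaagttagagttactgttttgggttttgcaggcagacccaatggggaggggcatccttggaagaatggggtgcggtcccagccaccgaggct
Rnase4, second start: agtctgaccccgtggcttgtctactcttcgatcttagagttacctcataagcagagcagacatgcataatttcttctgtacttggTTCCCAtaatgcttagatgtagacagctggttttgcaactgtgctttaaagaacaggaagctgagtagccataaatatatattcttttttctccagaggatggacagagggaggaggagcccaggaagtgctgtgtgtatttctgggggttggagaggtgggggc

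Ang was read by 3 probe sets. On the brightest it read 3581 and 1950 in EC-N1ICD, with 3891 and 3805 in wild type. On the same probe set it read 111 and 193 in EC-Rbpj-KO, with 248 and 212 in wild type. Both mutant arrays were below both wild type arrays in each set, with folds of 0.687 (limma, adjusted p = 0.516) and 0.638 (adjusted p = 0.245). The other probe sets were also lower, with folds of 0.584 and 0.552 for EC-N1ICD and of 0.350 and 0.409 for EC-Rbpj-KO. Averaged over its 3 probe sets, Ang passed in EC-Rbpj-KO (log2 change -1.15, adjusted p = 0.0396). On the brightest alone that change was -0.25 without EC-Rbpj-KO replicate 1 and -1.05 without replicate 2, and neither passed. On the brightest probe set the wild type signal of the EC-Rbpj-KO set was only 0.0596 times that of the EC-N1ICD set, while on the dimmest the wild type read 341 and 404 in the EC-Rbpj-KO set and 382 and 336 in the other. Probe sets of the kinds s_at and x_at can bind RNA of more than 1 gene of a family, and Ang has close paralogs, so which transcript gave these signals is uncertain.

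**Figure D3:**
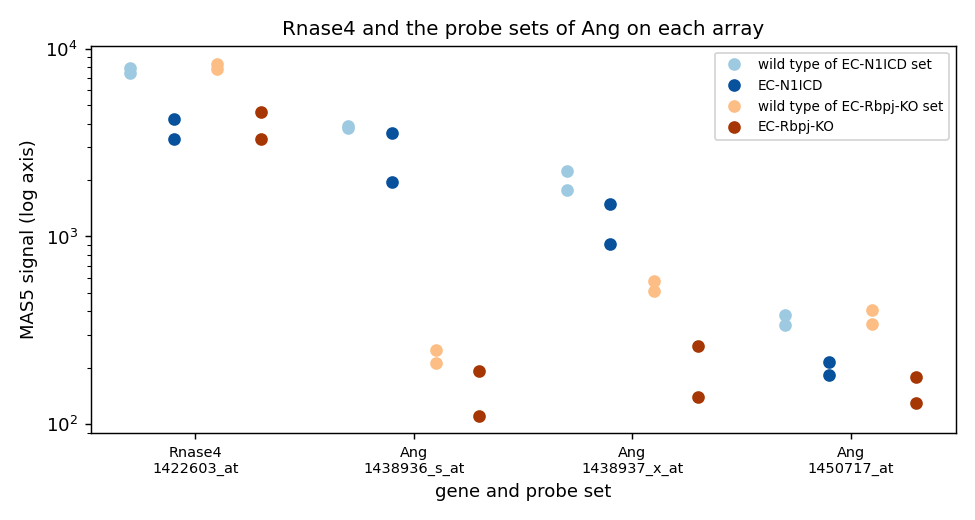
Signals of the Rnase4 probe set and of the 3 Ang probe sets on each of the 8 arrays (log axis), 1 point per array. On every probe set both mutant arrays lie below both wild type arrays of their own set, and on the brightest Ang probe set the arrays of the EC-Rbpj-KO set lie far below those of the EC-N1ICD set.

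Oit3, a secreted protein with a zona pellucida domain that is known from liver and the endothelium of its sinusoids, differed between the models. It read 110 and 134 in EC-N1ICD, with 473 and 331 in wild type. In the other set it read 251 and 234 in EC-Rbpj-KO and 178 and 139 in wild type. Both EC-N1ICD arrays were below their wild type and both EC-Rbpj-KO arrays were above theirs. The fall in EC-N1ICD was a log2 change of -1.70 (SE 0.23, limma, adjusted p = 0.012), and that of 0.62 for EC-Rbpj-KO did not pass (SE 0.23, adjusted p = 0.158). The difference between the models was 2.33 (SE 0.33, adjusted p = 0.0205), the only one of the 36 to pass, against 0.266% of all genes. The wild type of the EC-Rbpj-KO set had 0.398 times the signal of that of the EC-N1ICD set. The study lists Oit3 among secreted factors lower in EC-N1ICD from these samples, so the direction is not independent evidence. It reports no gene as both lower in EC-N1ICD and higher in EC-Rbpj-KO, and here the EC-Rbpj-KO value of Oit3 did not pass. The EC-N1ICD call ended without EC-N1ICD replicate 1 (adjusted p = 0.167), without wild type replicate 1 (0.085) and with sex in the fit (a log2 change of -1.81, adjusted p = 0.135).

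Haptoglobin (Hp), which binds free hemoglobin, had opposite values in the models and missed the threshold in both. It read 43 and 38 in EC-N1ICD, below the 81 and 89 of its wild type, and 104 and 111 in EC-Rbpj-KO, above the 63 and 44 of its own. The log2 fold changes were -1.07 (limma, adjusted p = 0.156) and 1.03 (adjusted p = 0.0712), and the difference of 2.10 had an adjusted p of 0.074. The EC-Rbpj-KO value passed with the mean of all probe sets of each gene (adjusted p = 0.0215) and without the trend in eBayes (0.0318). These signals are close to the array medians. Hemopexin (Hpx), which binds heme, had 72 and 54 against 27 and 42 in EC-N1ICD, with a fold of 1.85 (adjusted p = 0.385), and 99 and 131 against 107 and 55 in EC-Rbpj-KO, where the groups overlap.

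Plasminogen (Plg), the precursor of the clot-dissolving enzyme plasmin, fell in EC-Rbpj-KO. Its signals were 2378 and 2906 there against 5215 and 5217 in the wild type, and 1233 and 1319 in EC-N1ICD against 1922 and 2122. In each set the mutant arrays were below the wild type arrays with no overlap. The log2 change was -0.99 in EC-Rbpj-KO (SE 0.14, limma, adjusted p = 0.00277), a fold of 0.504, and -0.66 in EC-N1ICD (adjusted p = 0.0551). The call in EC-Rbpj-KO held when any of the 8 arrays was left out. Serpinf2, the main inhibitor of plasmin, had 7127 and 7158 against 5822 and 5268 in EC-Rbpj-KO, a fold of 1.29 that did not pass (adjusted p = 0.0648), and 4089 and 4046 against 3730 and 3802 in EC-N1ICD.

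**Figure D4:**
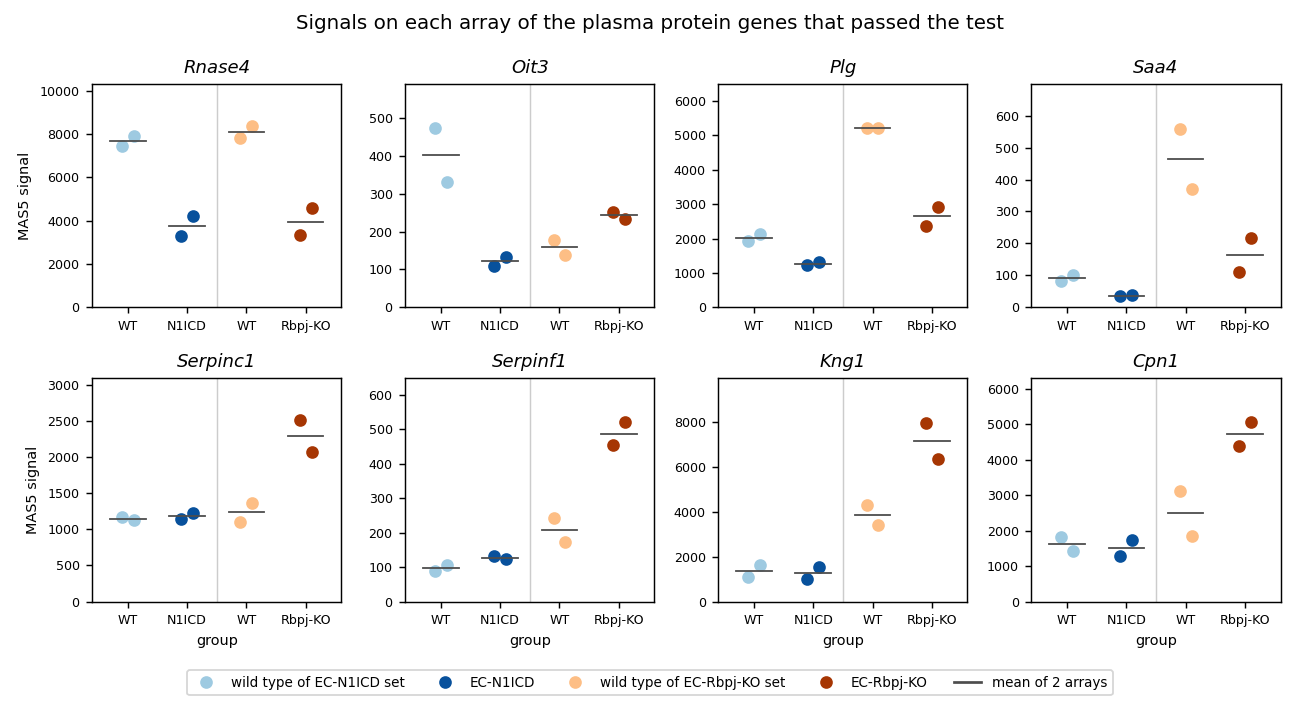
Signals of the 8 genes that passed the test in at least 1 model, with 1 point per array, a line at the mean of each group's 2 arrays and axes from 0. Rnase4 is lower in both mutants, Oit3 in EC-N1ICD, Plg and Saa4 fell in EC-Rbpj-KO, and the 4 genes of the lower row rose in EC-Rbpj-KO.

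Saa4, a serum amyloid A protein carried on high-density lipoprotein, had its largest signals in the wild type of the EC-Rbpj-KO set. Signals were 111 and 217 in EC-Rbpj-KO against 557 and 369, and 35 and 38 in EC-N1ICD against 84 and 100. Both models had lower signals than their wild type without overlap, and on the EC-N1ICD arrays the signal was below the array median. The log2 change was -1.55 in EC-Rbpj-KO (SE 0.32, limma, adjusted p = 0.0199) and -1.33 in EC-N1ICD (adjusted p = 0.107). The call ended without EC-Rbpj-KO replicate 1 (adjusted p = 0.0747), without wild type replicate 1 (0.152), with sex in the fit (0.0761) and with the mean of both probe sets (0.0576). In EC-Rbpj-KO the fit with sex gives the same log2 change, -1.06, as leaving out replicate 1, the only female array of that set. These are thus not separate checks. With sex in the fit the EC-N1ICD value of Saa4 was -0.36 (adjusted p = 0.781). The other probe set had signals of at most 49.

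The serpins, inhibitors of proteases, held 2 of the 4 genes that rose in EC-Rbpj-KO. Antithrombin (Serpinc1), the inhibitor of thrombin and factor Xa, had 2509 and 2062 in EC-Rbpj-KO against 1104 and 1362, and 1148 and 1231 in EC-N1ICD against 1163 and 1129. It rose 1.86-fold in EC-Rbpj-KO (SE 0.16 on the log2 scale, limma, adjusted p = 0.0103) and had a fold of 1.04 in EC-N1ICD (adjusted p = 0.947). The call ended without wild type replicate 1 of the EC-Rbpj-KO set (adjusted p = 0.102).

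Serpinf1, pigment epithelium-derived factor, a secreted serpin without known protease inhibition that restrains vessel growth, had 454 and 520 in EC-Rbpj-KO against 242 and 172, and 131 and 123 in EC-N1ICD against 89 and 105. It rose 2.38-fold in EC-Rbpj-KO (SE 0.22 on the log2 scale, limma, adjusted p = 0.00949), and the fold of 1.31 in EC-N1ICD did not pass (adjusted p = 0.549). Its second probe set had 167 and 151 against 156 and 154 in EC-Rbpj-KO, a fold of 1.03, so the 2 probe sets of the gene disagree. The call ended with the mean of both probe sets (adjusted p = 0.0612) and without wild type replicate 2 (0.115). Serpinf1 and Serpinf2 are adjacent on chromosome 11.

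The other serpins did not pass. Serping1, the C1 inhibitor, had 164 and 174 against 122 and 98 in EC-Rbpj-KO, a fold of 1.54 (limma, adjusted p = 0.204), and 79 and 87 against 126 and 85 in EC-N1ICD. Heparin cofactor II (Serpind1) had 2022 and 2434 against 2404 and 2046 in EC-Rbpj-KO, where the groups overlap, with a 95% interval of the fold of 0.758 to 1.32.

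Kininogen (Kng1), the precursor of bradykinin, and Cpn1, the catalytic subunit of the carboxypeptidase that trims bradykinin, both rose in EC-Rbpj-KO. Kng1 had 7947 and 6322 there against 4303 and 3412, and 1010 and 1529 in EC-N1ICD against 1101 and 1616. Cpn1 had 4389 and 5074 there against 3132 and 1846, and 1289 and 1729 in EC-N1ICD against 1809 and 1426. In EC-Rbpj-KO neither gene's groups overlapped, and in EC-N1ICD both genes' groups did. Kng1 rose 1.85-fold (SE 0.23 on the log2 scale, limma, adjusted p = 0.0494), with 1.74-fold on its second probe set, and Cpn1 rose 1.96-fold (SE 0.23, adjusted p = 0.0377). Both calls stood near the threshold: that of Kng1 ended under 10 of 19 alternatives, among them leaving out each of the 4 arrays of its set in turn (adjusted p from 0.0616 to 0.311), and that of Cpn1 under 11 of 19, among them leaving out either EC-Rbpj-KO array, wild type replicate 2 of that set or either wild type array of the EC-N1ICD set (adjusted p from 0.056 to 0.294). The difference between the models did not pass for Serpinc1 (0.84, adjusted p = 0.218), Serpinf1 (0.86, 0.342), Kng1 (0.99, 0.299) or Cpn1 (1.08, 0.271).

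The coagulation enzymes showed no call in either model. Prothrombin (F2) had 1460 and 1432 in EC-N1ICD, below the wild type signals of 1742 and 1755, with a fold of 0.827 (limma, adjusted p = 0.436), and its groups overlapped in EC-Rbpj-KO. Factors VII and X (F7 and F10), which lie beside Proz on chromosome 8, had folds between 1.07 and 1.22 in the 2 models. On its dimmer probe sets F10 had folds of 0.841 and 0.804 in EC-N1ICD and of 1.20 and 1.34 in EC-Rbpj-KO. Factor V (F5) had 269 and 181 in EC-N1ICD against 154 and 145, a fold of 1.48 (adjusted p = 0.342), with 2.29 on its second probe set, and 1.09 in EC-Rbpj-KO. In the anticoagulant protein C system, protein C (Proc) had 1110 and 1138 in EC-Rbpj-KO against 1593 and 1487, a fold of 0.730 (adjusted p = 0.122), and its cofactor protein S (Pros1) and protein Z (Proz) had folds of 0.999 and 1.12.

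Complement, inter-alpha-inhibitor and carrier genes also missed the threshold. Cfi read 5175 and 5232 in EC-N1ICD (wild type 5853 and 7662) and 7145 and 8456 in EC-Rbpj-KO (wild type 9654 and 8830), below wild type on both arrays of each model (folds of 0.777 and 0.842, limma, adjusted p = 0.273 and 0.323). Cfb, the protease of the alternative complement pathway, had 612 and 964 in EC-Rbpj-KO against 1040 and 1071, a fold of 0.728. The heavy chains Itih1, Itih2 and Itih3, which bind hyaluronan, had folds between 0.812 and 1.06. Ambp, the precursor of alpha-1-microglobulin and bikunin, had EC-Rbpj-KO signals as far apart as 2313 and 4731, around wild type signals of 4964 and 3486. Spink1 had 8420 and 8995 in EC-N1ICD against 10767 and 11447, a fold of 0.784 (adjusted p = 0.246). Apoh, a phospholipid-binding protein, had signals of 36 to 115 and overlapping groups in EC-Rbpj-KO. The 3 genes below the filter had signals of 22 to 35 for the fetuin Ahsg, 15 to 44 for Fetub and 17 to 31 for ceruloplasmin (Cp), and none was above the array median on any of the 8 arrays.

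The wild types of the 2 sets differed in these genes. In the EC-Rbpj-KO set both wild type arrays exceeded both of the EC-N1ICD set for 27 of the 36 genes and were below them for 4, against 46.5% and 23.4% of all genes. The median ratio was 1.61, against 1.13 over all genes, 1.44 over the visceral endoderm markers and 1.05 over the 10 apolipoprotein genes of endoderm. It was 4.95 for Saa4, 3.68 for Alb, 3.23 for Proz, 3.06 for Serpind1 and 3.03 for Ambp. Strain, cross and array set cannot be told apart here, so signals were compared with wild type within a set only.

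Other genes of the same tissue gave the background for these values. Of 52 further plasma protein genes of liver, 44 were measured and 20 tested. Vitronectin (Vtn), an adhesive plasma protein, rose in both models, from 84 and 100 to 276 and 269 in EC-N1ICD (2.97-fold, limma, adjusted p = 0.00719) and from 379 and 297 to 1438 and 1760 in EC-Rbpj-KO (4.74-fold, adjusted p = 0.000253). The study lists Vtn as higher in both models from these samples, so its direction is not independent evidence. In EC-Rbpj-KO 4 others rose, C9, C1s1, Plat and the protein Z-dependent inhibitor Serpina10, which had 5810 and 5389 against 3024 and 2912, and Fgl1, a fibrinogen-like protein, fell from 128 and 76 to 16 and 21 (adjusted p = 0.00616), which is below the array medians, so that background limits the size of its fall. Thbd, on that list although it is the thrombin receptor of endothelium, was the other call in EC-N1ICD, at a log2 change of -1.55. The median log2 fold changes of the 20 genes were 0.04 and 0.17. None of the 10 apolipoprotein genes was called in either model.

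Markers of the cell types moved with the genotypes to different degrees. Of the 18 visceral endoderm markers, none was called in EC-N1ICD (median log2 fold change 0.02). Krt19 and Sox17 rose in EC-Rbpj-KO while Cubn and Lrp2 fell (median -0.18). Their summed signal was 141815 and 137116 in EC-N1ICD, above the 136169 and 132916 of its wild type, and 143144 and 147801 in EC-Rbpj-KO, below the 155858 and 162624 of its own. The 10 tested markers of primitive erythroid cells had a median of -1.05 for EC-N1ICD and of -0.37 for EC-Rbpj-KO, with 1 call each (Tfrc, which fell). The summed signal of the 11 measured was 48632 and 82908 in EC-N1ICD, below the 95789 and 101569 of its wild type, and 54616 and 66980 in EC-Rbpj-KO, below the 71282 and 69246 of its own. The 10 macrophage markers had medians of 0.72 and 1.13, with 1 call in EC-N1ICD (Ly86, which rose) and 7 in EC-Rbpj-KO, of which 5 rose and 2 fell. The 14 tested endothelial markers had medians of 0.01 and 0.37, and Cldn5 and Icam2 rose in EC-Rbpj-KO. The 11 tested markers of yolk sac mesoderm and smooth muscle had medians of 0.13 and 0.10. Of these the smooth muscle genes Tagln (2.95-fold, limma, adjusted p = 0.00275) and Myl9 (1.81-fold, adjusted p = 0.0481) rose in EC-N1ICD, and Pdgfra fell in EC-Rbpj-KO. The 5 tested megakaryocyte markers had medians of -0.67 and 0.00, and Pf4, a platelet chemokine, fell in EC-N1ICD from 1400 and 2324 to 304 and 668. Tagln, Pf4 (there named Cxcl4) and probably Tfrc (printed Tfric) are also listed by the study from these samples. Their directions are thus not independent evidence. The 10 parietal endoderm markers had medians of 0.29 and 0.06, where Thbd fell in EC-N1ICD, and Plat and Pth1r rose in EC-Rbpj-KO. Thbd and Plat are also on the list of further plasma protein genes, so these are the same calls as above. Of the hepatocyte enzymes Otc rose 2.16-fold in EC-Rbpj-KO (adjusted p = 0.0147). None of the 4 tested decidua markers and the 1 tested trophoblast marker was called in either model. The part of the makeup of the tissue in the changes of the plasma protein genes was not tested.

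**Figure D5:**
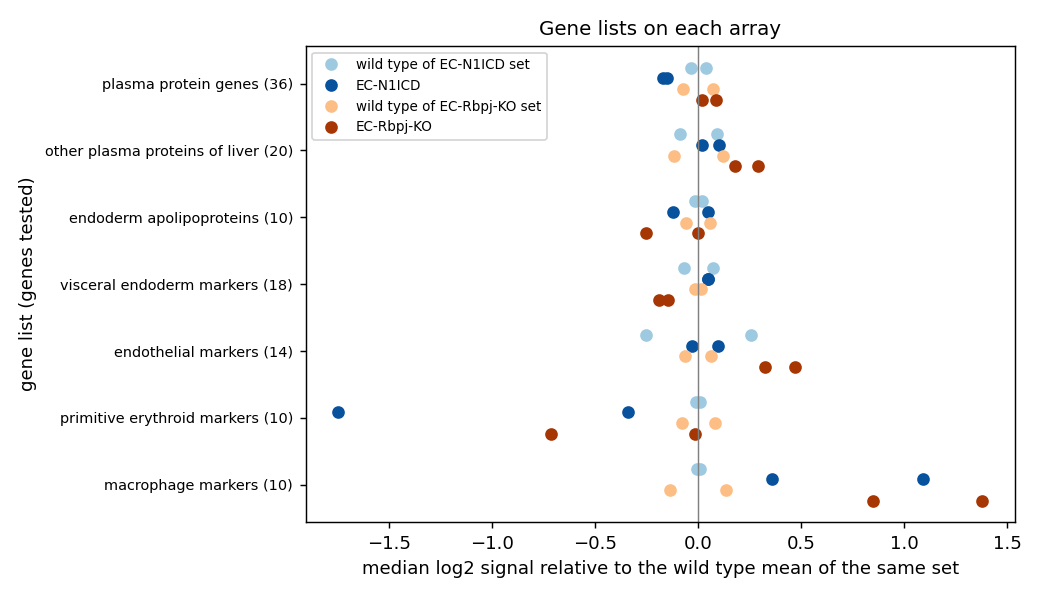
Median of the log2 signals of 7 gene lists, 1 point per array, after subtracting each gene's wild type mean in its set, with the number of tested genes in parentheses. The plasma protein genes stay between -0.17 and 0.09 on the mutant arrays, while the primitive erythroid markers reach -1.75 on EC-N1ICD replicate 1 and the macrophage markers 1.38 on EC-Rbpj-KO replicate 1.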

How the data were processed

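Groups were taken from the source names, titles and genotypes of the samples. The deposited values are one intensity per probe set and array, summarised by the authors with MAS5 (version and scaling not given in the sources used here), without detection calls. The design text names the 430A array, and the table holds 45101 probe sets. Probe sets were named through the platform annotation, in which 34958 name 1 gene, 932 several and 9211 none, and the last 2 kinds were left out. Of 34958, 34754 matched RefSeq by gene number. Each gene was read from its brightest probe set by mean over the 8 arrays, and genes above the 40th percentile of mean signal (67.88) were tested, 10913 in all.

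The log2 signals of all 4 groups entered a linear model in limma 3.58.1 under R 4.3.3 (trended eBayes, 4 residual and 7.37 prior degrees of freedom), with contrasts within a set and the difference between them. Two-sided p-values were adjusted by Benjamini-Hochberg over all tested genes, with a threshold of 0.05. Tested on simulated data, the fit called 77.6% of 2-fold changes for EC-N1ICD and 73.1% for EC-Rbpj-KO. Of 1.5-fold changes it called 26.9% and 13.4%. The simulated noise was independent between arrays, took the fit's own variances and held no effect of set, sex or RNA quality. These shares are thus for a simpler setting than the data. The number of arrays limits the precision. Genes named with every signal were those called, those beyond wild type on both arrays by at least 1.5-fold, and the transport, fibrinogen and ribonuclease genes, and values of the rest were chosen after they were seen. The members and lists were chosen with earlier results of these data known.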

Additional observations from a re-analysis of the deposited data

Results flagged for a closer look

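The change of Oit3 differed between the models, by 2.33 on the log2 scale (limma contrast of the EC-Rbpj-KO and EC-N1ICD changes, SE 0.33, adjusted p = 0.0205). Oit3 was lower than wild type on 2 of 2 EC-N1ICD arrays and higher on 2 of 2 EC-Rbpj-KO arrays. The difference passed in 11 of 15 alternatives, with an adjusted p from 0.00592 to 0.11, and missed the threshold without EC-N1ICD replicate 1 (0.11), wild type replicate 1 of that set (0.0849) or wild type replicate 2 of the EC-Rbpj-KO set (0.0716), and without the trend in eBayes (0.053).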

How the results depend on the processing

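No called gene changed direction under any alternative that was run. No paired analysis was possible because the first number in the sample names, of unstated meaning, is common to 1 mutant array and both wild type arrays of a set and not to the other mutant array, and the second number is common to no mutant and wild type array of a set. In EC-N1ICD the plasma protein genes called numbered 1 with a filter at the 60th percentile or without the trend in eBayes, 0 with sex in the fit, and 0 to 4 when 1 array was left out. The methods' t-test gave 11 at an unadjusted p under 0.05 (3 higher, 8 lower) and 0 after Benjamini-Hochberg. All genes called there numbered 106 after median centring, 118 after quantile normalization, 27 at the 60th percentile, 103 with the set fitted on its own, 15 with sex, 939 by the unadjusted t-test, 0 after adjustment, and 7 (without EC-N1ICD replicate 1) to 140 with 1 array left out. The median log2 change of the plasma protein genes in EC-N1ICD was -0.168 after centring, -0.135 without the filter, -0.126 at the 60th percentile, 0.0286 with sex and -0.264 to -0.153 with 1 array left out. In EC-Rbpj-KO, the plasma protein genes called numbered 0 by the adjusted t-test, 4 with sex and 4 to 7 with 1 array left out. All genes called there numbered 266 with the set on its own, 1312 by the unadjusted t-test, 0 after adjustment, and 147 (without wild type replicate 2) to 628 with 1 array left out. The split of all genes turned from 218 higher and 323 lower to 375 and 300 after centring and 357 and 303 after quantile normalization, while that of the plasma protein genes was 4 and 3 after centring and 5 and 3 after quantile normalization. The median of the plasma protein genes in EC-Rbpj-KO was 0.1 after centring, -0.0271 at the 60th percentile, 0.0874 with sex and 0.00872 to 0.0874 with 1 array left out. For the difference between the models, 0 genes of the list passed at the 60th percentile or without the trend, 2 with the mean of all probe sets, and 0 to 1 with 1 array left out. The count of 33 genes above the array median in wild type was also 33 with the mean of all probe sets and 30 against the 60th percentile of each array, both added after seeing the data. Of the called genes, Rnase4 and Plg in EC-Rbpj-KO lost the call under 1 of 19 alternatives, the adjusted t-test. Serpinc1 lost it under 3 of 19, Serpinf1 under 3 of 18, Saa4 under 7 of 18, Kng1 under 10 of 19 and Cpn1 under 11 of 19, and in EC-N1ICD Rnase4 lost it under 6 of 19 and Oit3 under 4 of 18. Calls gained were those of Ang (1 alternative) and Hp (2) in EC-Rbpj-KO, and of Plg (3), Saa4 (3) and Hp (1) in EC-N1ICD, the latter by the unadjusted t-test or, for Plg and Saa4, also without either EC-Rbpj-KO array. For EC-Rbpj-KO the fit with sex gives the same log2 changes as leaving out replicate 1, the only female array of that set. The counts of alternatives hold both, although they are not separate checks. The causes were not tested. Signals near the array medians, as of Hp, Hpx and, in the EC-N1ICD set, Alb and Saa4, are limited by background.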
